A study of Mus musculus with 5 samples.

Results

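Across 5 ATAC-seq libraries of mouse thymocytes, 1080 autosomal regions of open chromatin were called in every γδ T cell library and in no peak of the library of double-positive (DP) thymocytes. They were chosen by the deposited peak calls: peaks of the 5 lists sharing 1 bp or more were joined, and the autosomal regions with a peak in all 4 γδ lists and none in the DP list were kept. They were 1080 of 153269 autosomal regions (0.705%), and 1080 of the 15575 autosomal regions that all 4 γδ lists shared (6.93%, exact 95% interval 6.54 to 7.34). Both shares follow from the rule. The other 14495 regions shared by the γδ lists, which DP also had, are the closest comparison and are called the regions of all 5 libraries.

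ATAC-seq uses a transposase that cuts and tags accessible DNA, so that a peak marks a stretch of open chromatin such as a promoter or an enhancer. γδ T cells carry an antigen receptor of γ and δ chains. DP thymocytes, which express both CD4 and CD8, are an intermediate of the other lineage, the αβ T cells, and sites open in γδ but not in DP cells are candidates for elements used by the γδ lineage. SOX13 is an HMG-box transcription factor found in early γδ thymocytes, where it is known for its part in γδ T cells that make interleukin 17.

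All mice were of strain C57BL/6. The γδ thymocytes came from animals labelled TCRbeta KO with 1 copy of a knock-in that places ECFP, a cyan fluorescent protein, at Sox13. From γδ cells of these animals, CD24+ cells were sorted as SOX13hi (high CFP) or SOX13lo (low to absent CFP). The SOX13hi and SOX13lo libraries carried no transgene, and the transgenic SOX13hi and transgenic SOX13lo libraries came from animals that also carried a Sox13 transgene (Sox13tg+), whose promoter is not given in the sources used here. DP cells came from wild-type animals, so cell type and the TCRbeta genotype cannot be told apart in any difference from DP, and the sources used here give neither the ages nor the numbers of animals. Each group has 1 library. Everything below therefore describes these libraries, with no test, and intervals are exact Clopper-Pearson 95% intervals that cover counting error only.

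The DP list was the longest with 113877 peaks, against 54435 for SOX13hi, 67482 for SOX13lo, 63932 for transgenic SOX13hi and 33155 for transgenic SOX13lo. Read depths are unknown. Peak intervals were short: 42.1% of DP peaks and 43.6% to 50.2% of the peaks in the γδ lists were at most 30 bp wide. Each line of the SOX13lo list carries the name SOX13hi, but it was used as SOX13lo, as its sample is labelled. Transgenic SOX13hi and DP have the same index in the labels, and its part in the results was not tested. Coordinates are on mm9. No gene annotation or genome of that build was at hand, so the regions were not assigned to genes, the cell types were not checked at marker genes, and sequences and motifs were not analysed here.

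The deposited score has no stated unit and was used as a rank within a list. The rank of a region is the percentile of its highest-scoring peak among all peaks of that list. A rank of 90 thus lies above about 90% of the list. Peaks of equal score share their middle rank, so the lowest score does not rank at 0. It ranked 9.14 in SOX13hi, 8.05 in SOX13lo, 9.48 in transgenic SOX13hi and 10.2 in transgenic SOX13lo. The γδ-common regions that DP lacked were weaker sites than those DP shared. Their median rank was 68.0 in SOX13hi, 74.8 in SOX13lo, 74.2 in transgenic SOX13hi and 53.1 in transgenic SOX13lo. The regions of all 5 libraries had medians of 82.7, 87.0, 85.6 and 72.3, in the same order. In each γδ list the members thus lay above the middle of the list and below the sites shared with DP. Their median merged width was 215.5 bp (range 32 to 1072) against 356 bp. In 58.2% of the members each γδ list had exactly 1 peak, against 39.0% of the regions of all 5 libraries. The latter include DP peaks, which can widen and join regions, so part of both contrasts follows from the rule. The highest-scoring γδ peak of a member had a median width of 92, 117, 98 and 34 bp in the same order of libraries. In the regions of all 5 libraries it was 118, 160, 132 and 76 bp.

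The share that DP lacked fell with strength. Each region was placed by its lowest rank over the 4 γδ lists. Of the regions with a lowest rank under 10, DP lacked 119 of 754 (15.8%, 13.3 to 18.6). Through ties this bin holds only regions with the lowest score of SOX13hi, SOX13lo or transgenic SOX13hi. The lowest score of transgenic SOX13lo falls in the bin from 10 to 20, where DP lacked 156 of 1186 (13.2%). Between 40 and 50 it lacked 135 of 1431 (9.43%), and from 90 upwards 31 of 2467 (1.26%, 0.855 to 1.78). The strongest γδ sites were nearly all sites of DP thymocytes too.

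**Figure D1:**
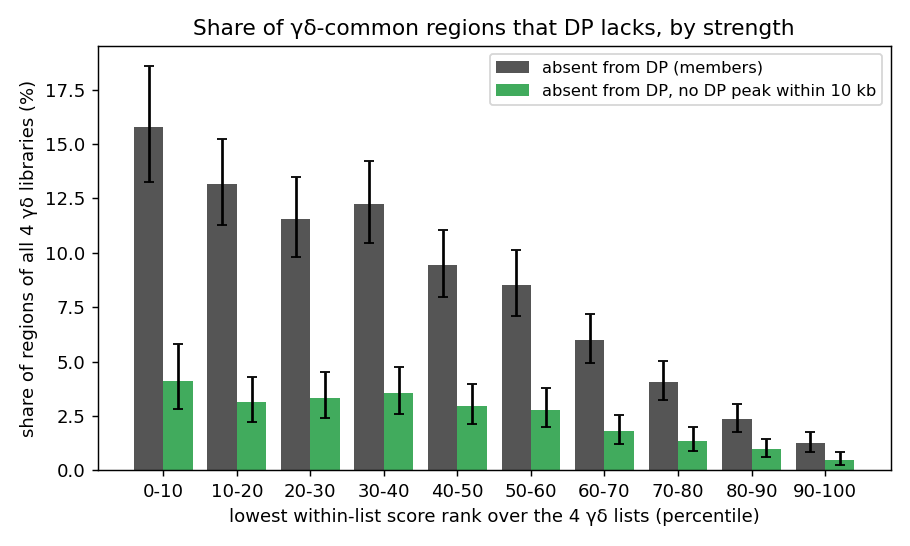
Share of the autosomal regions of all 4 γδ libraries that DP lacked (dark bars) and that also had no DP peak within 10 kb (green bars), in bins of the lowest within-list score rank over the 4 γδ lists. Error bars are exact 95% intervals. The dark bars fall from 15.8% in the bin under 10 to 1.26% in the bin from 90 upwards.

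Absence from DP covered very different surroundings. Of the 1080 members, 614 (56.9%, 53.8 to 59.8) had a DP peak within 1 kb, and 385 of these had one within 200 bp. A further 144 had their nearest DP peak between 1 and 10 kb away. The remaining 322 (29.8%, 27.1 to 32.6) had no DP peak within 10 kb. The first set is called adjacent and the last isolated. Which set was larger depended on how the peaks were handled. With lists of equal length 34.2% of 1435 members were within 1 kb of a DP peak and 687 (47.9%) were isolated, and with peaks within 150 bp joined 16.4% of 629 were within 1 kb and 366 (58.2%) were isolated. Without transgenic SOX13lo 53.7% of 2953 were within 1 kb and 920 (31.2%) were isolated. The limit of 10 kb was set after the distances were seen. The median gap over all members was 415 bp and the largest was 1373 kb.

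Most adjacent members lay beside strong DP sites. The highest-scoring DP peak within 1 kb of them had a median rank of 97.2 in the DP list, and in 457 of 614 (74.4%) it ranked above 90. The median was 92.2 for the best DP peak inside the regions of all 5 libraries. These medians are not alike, as the first takes the highest of a median of 3 DP peaks within 1 kb. The highest-scoring DP peak near an adjacent member is meant in what follows. It ranked under 50 in 77. DP peaks stood on both sides of 362 of the 614 (59.0%). These DP peaks were narrow as deposited, with a median width of 78 bp, and lay a median of 267 bp from the member. Widths of the γδ peaks at 1 place differed widely between libraries. At chr10:110602171-110603008, which followed chr9:3024095-3024137 in order of lowest rank, the highest-scoring γδ peak was 801 bp wide in SOX13hi, 838 bp in SOX13lo, 287 bp in transgenic SOX13hi and 28 bp in transgenic SOX13lo. Its ranks were 98.6 to 98.8 in the 4 lists. DP had 3 peaks within 1 kb, the strongest of 89 bp with a rank of 99.9, 343 bp away. At chr4:33335148-33335903 the γδ ranks were 98.5 to 99.1, and a DP peak of 78 bp with a rank of 99.9 lay 397 bp away. At chr7:19813215-19813840 a DP peak of 29 bp with a rank of 99.9 lay 290 bp from γδ peaks ranked 97.7 to 99.7. At these places DP was open close by, and whether DP lacked the γδ site or only an interval of that width was not tested.

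Members just inside the rule were those that touched or nearly touched a DP peak. A gap of 0 bp was found for 4 members and a gap of 1 to 50 bp for 110. The 4 were chr1:172990610-172990679, chr4:40770877-40770954, chr7:133483506-133483662 and chr18:66630324-66630505, and their strongest DP peak within 1 kb ranked 37.9, 81.7, 91.0 and 22.9. The next, chr3:127598795-127599344, was 1 bp from a DP peak of rank 98.7 and ranked 96.3 to 97.8 in the γδ lists. Just outside the rule were 110 regions whose best DP peak had the lowest score of that list (5). The first 5 by position were chr1:168749631-168749867, chr1:169218888-169219026, chr1:194579307-194579574, chr2:4452622-4452840 and chr2:22445945-22446081, with lowest γδ ranks from 31.6 to 55.1. DP peaks ranked under 50 in 462 (3.19%) of the regions of all 5 libraries.

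The rule was turned to every other library to see how often a region found in the other 4 was missing from 1 list. SOX13hi lacked 999 of 15494 such regions (6.45%, 6.07 to 6.85), beside the 6.93% that DP lacked, and the 2 intervals overlap. SOX13lo lacked 432 of 14927 (2.89%), transgenic SOX13hi 469 of 14964 (3.13%) and transgenic SOX13lo, the shortest list, 6970 of 21465 (32.5%). DP thus lacked a larger share than SOX13lo and transgenic SOX13hi although its list was the longest. A peak of the lacking library lay within 1 kb in 47.5% of the SOX13hi-lacked, 52.3% of the SOX13lo-lacked, 60.6% of the transgenic SOX13hi-lacked and 32.9% of the transgenic SOX13lo-lacked regions, against 56.9% for DP. Near misses were therefore found for every library. Gaps above 10 kb made up 27.4% (24.7 to 30.3), 23.6%, 14.9% and 43.1% in the same order, against 29.8% for DP. The farthest 5% of the regions lay beyond 56.1 kb for SOX13hi, 41.4 kb for SOX13lo, 31.9 kb for transgenic SOX13hi, 122 kb for transgenic SOX13lo and 202 kb for DP. Of the regions missing from DP alone, 129 (11.9%) had a lowest rank above 50 in the other lists and no DP peak within 10 kb. The corresponding numbers were 42 (4.204%) for SOX13hi, 17 (3.94%) for SOX13lo, 6 (1.28%) for transgenic SOX13hi and 1130 (16.2%) for transgenic SOX13lo. The lowest rank is taken over a different set of lists in each case, so these values are given side by side and not compared.

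**Figure D2:**
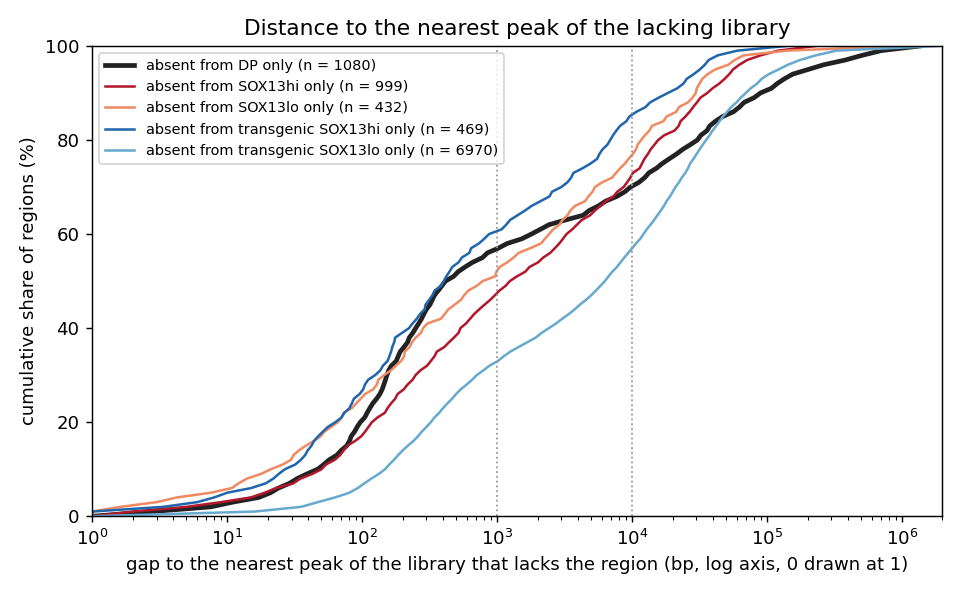
Cumulative share of the regions present in 4 libraries and absent from the fifth, against the gap to the nearest peak of the library that lacks them (bp, log axis). Dotted lines mark 1 and 10 kb; the DP line (black, the 1080 members) stands at 56.9% by 1 kb, and 29.8% of the members lie beyond 10 kb.

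The share lacking in DP also depended on how many γδ lists held a region. DP lacked 72.9% of the regions in exactly 1 γδ list, 42.0% of those in 2, 22.6% of those in 3 and 6.93% of those in all 4. Over all regions in any γδ list, 50.4% were absent from DP. The members are therefore the small part of γδ chromatin that was both found in every γδ list and missing from DP.

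The isolated members had no DP peak in their wider surroundings. Their median ranks were 74.3 in SOX13hi, 75.4 in SOX13lo, 79.8 in transgenic SOX13hi and 57.3 in transgenic SOX13lo. The adjacent members had 64.5, 74.5, 71.0 and 48.1. The intervals of the 2 medians did not overlap in SOX13hi (71.6 to 78.9 against 61.9 to 66.7) or transgenic SOX13hi (76.1 to 81.5 against 68.4 to 73.2), and they overlapped in both SOX13lo lists. Of the 31 members with a rank above 90 in all 4 γδ lists, 12 were isolated, 19 were adjacent and 0 lay in between. The strongest isolated members are described next and were picked after their values were seen.

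The isolated member with the highest lowest rank was chr10:68136207-68136756, 131 kb from the nearest DP peak. It scored 124 in SOX13hi, 191 in SOX13lo, 147 in transgenic SOX13hi and 105 in transgenic SOX13lo, and its ranks were 96.4, 96.7, 97.8 and 97.9. It was the only isolated member among the 10 strongest members, and no other region of 2 or more γδ lists lay within 10 kb of it. The next was chr13:111354140-111354639, 168 kb from DP, with scores of 115, 164, 142 and 121 and ranks of 95.9, 95.8, 97.6 and 98.5. Both ranked above 90 in every γδ list.

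Ranks in lists of different length cannot be compared across libraries, so every list was also limited to its 33155 highest-scoring peaks, the length of the shortest list, and ranked again. A region no longer held was placed at 0. All 4 shortened lists still held 691 of the 1080 members (64.0%) and 219 of the 322 isolated members (68.0%), against 84.6% of the regions of all 5 libraries.

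On this scale the strongest isolated members differed between the libraries. The member chr3:141441235-141441952, 718 bp wide and 84.0 kb from DP, had equal-length ranks of 98.2 in SOX13hi, 89.3 in SOX13lo, 96.9 in transgenic SOX13hi and 97.5 in transgenic SOX13lo. At chr2:65986860-65987087, 23.6 kb from DP, they were 97.2, 87.2, 97.8 and 94.7, so that both SOX13hi libraries ranked it above both SOX13lo libraries. At chr2:149109039-149109189, 380 kb from DP, the order was different, with 97.3, 97.5, 96.7 and 92.8. The lowest here was transgenic SOX13lo. At chr4:28739903-28740511, 636 kb from DP, transgenic SOX13lo was highest (87.2, 83.7, 87.5 and 94.1), and 4 other regions of at least 2 γδ lists lay within 10 kb.

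SOX13lo alone gave the lowest of the 4 equal-length ranks for 11 of the 15 strongest isolated members. These 15 were picked by their ranks in the full lists, where SOX13lo was lowest for 10 of them. Shortening lowers a given rank most in SOX13lo, the longest γδ list, and the part of shortening in these counts was not tested. By equal-length rank, SOX13lo alone was lowest for 111 of all 322 isolated members (34.5%, 29.3 to 39.9), 272 of the 1080 members (25.2%) and 22.0% of the regions of all 5 libraries. At chr10:24201812-24202422 the equal-length rank was 96.0 in SOX13hi, 83.9 in SOX13lo, 97.9 in transgenic SOX13hi and 98.6 in transgenic SOX13lo. At chr8:81498725-81499389 it was 96.2, 80.5, 87.8 and 93.3. An exception was chr1:91499490-91499828, where transgenic SOX13hi was lowest (94.3, 92.6, 85.9 and 94.7).

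**Figure D3:**
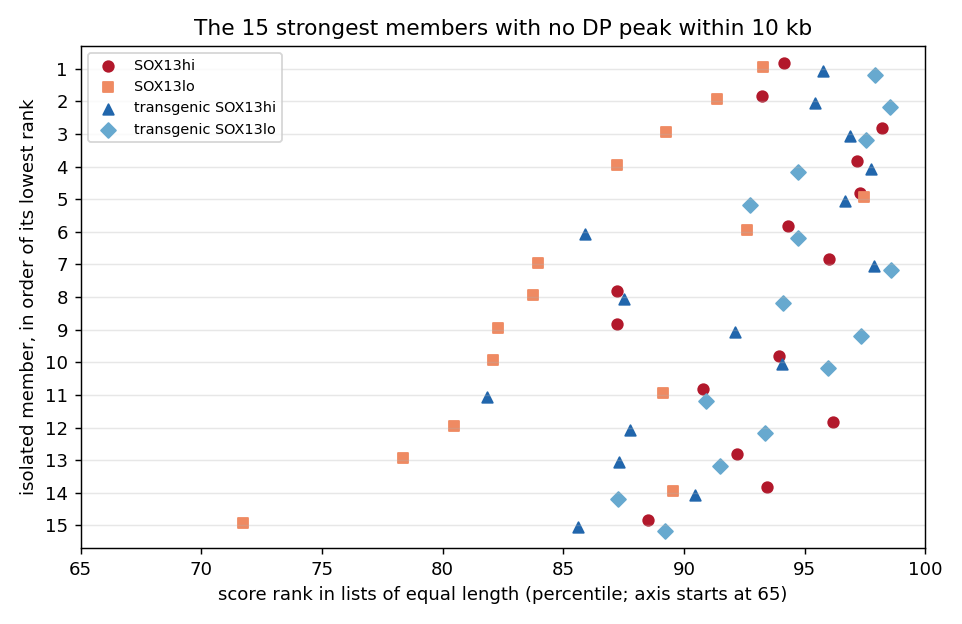
Equal-length score rank (percentile, axis from 65 to 100) of the 15 isolated members with the highest lowest rank, ordered from top to bottom, in the 4 γδ libraries. SOX13lo (orange squares) has the lowest rank in 11 of the 15, against 34.5% of all isolated members.

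Over all 1080 members the non-transgenic fractions did not lean to either side. The equal-length rank was higher in SOX13hi for 525 and in SOX13lo for 497, with a median difference of 0. Over all strengths the isolated and adjacent members leaned in opposite directions. Among the isolated members the equal-length rank was higher in SOX13hi than in SOX13lo for 192 of 322 and lower for 112, and their median difference was 4.78 points (95% interval of the median over members 2.49 to 6.99). In the regions of all 5 libraries SOX13hi was higher in 6514 and lower in 7692 of 14495, with a median difference of -0.49. Differences of at least 25 points were then counted. Of all regions of the 4 γδ lists, 8.46% were at least 25 points higher in SOX13hi and 12.7% in SOX13lo. Of the 1080 members 189 (17.5%) were higher in SOX13hi and 182 (16.9%) in SOX13lo. Among isolated members 81 (25.2%, 20.5 to 30.3) were higher in SOX13hi and 39 (12.1%, 8.76 to 16.2) in SOX13lo. Among adjacent members the order was turned, with 79 (10.3% to 15.8%) higher in SOX13hi and 123 (16.9% to 23.4%) in SOX13lo. Members ranked lower than the regions of all 5 libraries, so the counts were also taken by strength. These classes use full-list ranks, which shortening lowers unequally. A full-list rank of 52.1 in SOX13hi became 21.4, and one of 51.3 in SOX13lo became 1.81. With 50 or more, members also lay nearer the cut: they were 8.50% of the γδ-common regions from 50 to 60 and 1.26% from 90 upwards. The part of this in the counts by strength was not tested. Within the regions whose lowest rank was 50 or more, 27 of 129 isolated members (20.9%) were higher in SOX13hi and 6 (4.65%) in SOX13lo, against 4.22% and 4.99% of the regions of all 5 libraries. With a lowest rank under 50 the isolated members had 28.0% and 17.1%, and the regions of all 5 libraries 14.4% and 26.1%. The adjacent members under 50 had 15.4% and 25.9%, close to the regions of all 5 libraries. With 50 or more, 16 of 204 adjacent members (7.84%) were higher in SOX13hi and 17 (8.33%) in SOX13lo, with no clear lean.

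In the transgenic pair the isolated members as a whole were near balance. The background was 11.9% of regions at least 25 points higher in transgenic SOX13hi and 14.1% in transgenic SOX13lo. Among isolated members the numbers were 65 (20.2%) and 70 (21.7%), and the median difference was 0.13 points (interval -4.11 to 3.40). By strength the direction differed, in the isolated members and in the regions of all 5 libraries alike. The classes themselves favour this, so the direction by strength cannot be read as a difference between the cells. The class of 50 or more keeps transgenic SOX13lo at 50 or above, as its list was not shortened. In transgenic SOX13hi a full-list rank just over 50 became 3.86. The part of this in the counts was not tested. With a lowest rank of 50 or more 7 of 129 isolated members (5.43%) were higher in transgenic SOX13hi and 19 (14.7%) in transgenic SOX13lo. The regions of all 5 libraries had 2.16% and 7.60%. With a lowest rank under 50 the isolated members had 58 (30.1%) and 51 (26.4%), close to the 29.1% and 24.1% of the regions of all 5 libraries. Among adjacent members of any strength the numbers were 85 (13.8%) and 156 (25.4%). The difference between the 2 pairs was not tested. Both pairs rest on 1 library per fraction, and the transgenic SOX13lo list was the shortest, so its equal-length list holds all its peaks down to the lowest score.

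**Figure D4:**
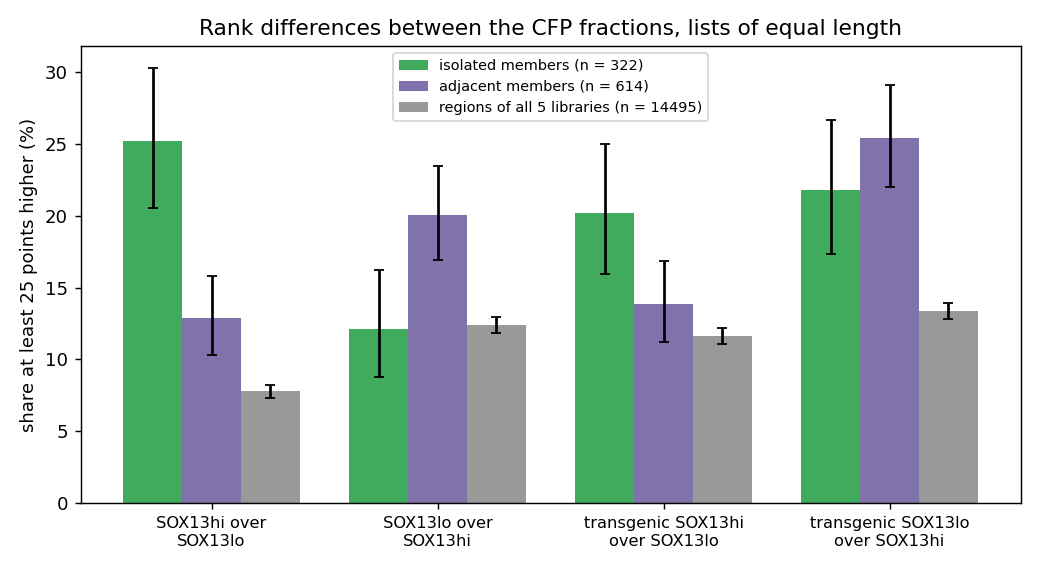
Share of regions at least 25 points higher in equal-length rank in 1 CFP fraction than in the other, for isolated members (green), adjacent members (purple) and regions of all 5 libraries (grey), with exact 95% intervals. The isolated members reach 25.2% for SOX13hi over SOX13lo and 12.1% the other way, and 20.2% and 21.7% in the transgenic pair.

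In both genotypes at once, 45 of the 1080 members (4.17%) were at least 25 points higher in SOX13hi and 68 (6.30%) at least 25 points higher in SOX13lo, against 1.79% and 3.85% of all regions of the 4 γδ lists. The isolated members had the reverse order, with 27 (8.39%) and 17 (5.28%), and the adjacent members had 12 (1.95%) and 41 (6.68%). With a lowest rank under 50 the members had 5.74% and 7.60%, against 4.23% and 8.20% of the regions of all 5 libraries. Isolated members under 50 had 11.4% and 7.77%, and adjacent ones 2.93% and 7.56%. With 50 or more the members had 1.31% and 3.92%, against 0.202% and 1.21% of the regions of all 5 libraries. The limits of these classes given above apply here too. An isolated example was chr17:62719015-62719364, 59.4 kb from DP, with equal-length ranks of 82.8 in SOX13hi, 14.1 in SOX13lo, 77.2 in transgenic SOX13hi and 10.2 in transgenic SOX13lo. The member chr13:5591756-5592066, 121 kb from DP, ranked 78.0 in SOX13hi, 67.3 in transgenic SOX13hi and 10.2 in transgenic SOX13lo, and the shortened SOX13lo list did not hold it. In the opposite direction, chr18:65541282-65541432 ranked 7.73 in SOX13hi, 63.6 in SOX13lo and 73.6 in transgenic SOX13lo, and the shortened transgenic SOX13hi list did not hold it. These were picked as the largest differences and are given as examples. At the chromosome 17 and chromosome 13 members, the rank of 10.2 in transgenic SOX13lo belongs to the lowest score of that list (8).

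Transgenic and non-transgenic cells were compared within each fraction. Over all strengths the members had larger shares of differences than all regions in both fractions. The SOX13lo fraction also had more differences than the SOX13hi fraction among all regions. Of all regions of the 4 γδ lists 13.7% were at least 25 points higher in transgenic SOX13lo than in SOX13lo and 13.7% were lower. Of the 1080 members 292 (27.0%) were higher and 174 (16.1%) lower. Isolated members had 96 (29.8%) and 49 (15.2%). Beside regions of all 5 libraries in the same class of lowest rank, more members were higher with the transgene and fewer were lower. These classes do not match strength fully, as the members lay nearer the cut within the class of 50 or more. That class also keeps transgenic SOX13lo at 50 or above, while a full-list rank of 51.3 in SOX13lo became 1.81. The part of this in the shares was not tested. With a lowest rank under 50 the members had 30.8% and 24.0%, against 21.7% and 33.2%. With 50 or more they had 20.1% and 1.83%, against 7.81% and 2.86%. In the SOX13hi fraction the background was 10.9% higher and 7.96% lower with the transgene, and the members had 176 (16.3%) and 144 (13.3%). The order in that fraction turned with strength. With a lowest rank of 50 or more 16 of 383 members (4.18%) were higher with the transgene and 39 (10.2%) lower, against 3.92% and 3.69% of the regions of all 5 libraries. Under 50 the members had 160 of 697 (23.0%) and 105 (15.1%), close to the 22.5% and 14.7% of the regions of all 5 libraries. Both fractions moved together in few members: 71 (6.57%) were at least 25 points higher with the transgene in both (background 3.04%) and 33 (3.06%) at least 25 points lower in both (background 1.7%). These shares were not split by strength. The isolated member chr7:103361601-103362065, 701 kb from DP, had equal-length ranks of 76.2 and 84.2 in the transgenic fractions and was not held by either non-transgenic list of that length. Its scores were 9 and 14 without the transgene and 50 and 34 with it (SOX13hi first). At chr5:16512702-16513150, 537 kb from DP, the equal-length ranks were 78.0 and 72.7 without the transgene and 25.5 and 10.2 with it. The rank of 10.2 again belongs to the lowest score of transgenic SOX13lo.

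Members were scattered over the genome. They lay in 943 windows of 100 kb, of which 838 held exactly 1, 88 held 2 and 17 held 3 or more. Another member lay within 10 kb of 162 members (12.9% to 17.3%), whereas 45.8% of the more numerous regions of all 5 libraries had another of their kind within 10 kb. Of the 322 isolated members 133 (41.3%) had another region of at least 2 γδ lists within 10 kb, a smaller share than the 851 (78.8%) of all 1080 members. The median number of such regions was 0 for the isolated members and 2 for all members. Part of this follows from the definition, which leaves no DP peak within 10 kb of an isolated member. The members were 4.57% (3.24 to 6.25) of the γδ-common regions of chromosome 8 and 8.92% (7.24 to 10.8) of those of chromosome 10, the lowest and highest of the 19 autosomes. Isolated members ranged from 0.846% of the γδ-common regions on chromosome 9 to 3.60% on chromosome 18.

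The 2 windows with the most members were dense in every full list and held no isolated member. On chromosome 11 at 3000001 to 3100000 there were 13 members among 128 to 143 regions in each γδ library, and DP had 125. In lists of equal length that window held 145 to 172 peaks of each γδ library and 22 of DP. On chromosome 9 at 3000001 to 3100000 there were 6 members among 66 to 70 γδ regions, and DP had 63. At equal length it held 64 to 71 peaks of each γδ library and 46 of DP. The strongest member of all, chr9:3024095-3024137, was 43 bp wide, ranked 99.2 to 99.9 in the γδ lists and stood between 6 DP peaks within 1 kb. The members chr9:3006727-3006945 and chr11:3081338-3081433, also among the 10 strongest, came from these windows. In all, 22 members lay in the 4 windows with at least 20 regions in each γδ library. The other 1058 did not.

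In contrast, on chromosome 14 at 99800001 to 99900000 all 3 members were isolated and DP had no peak in the window. The regions chr14:99848271-99848706 and chr14:99848944-99849497 lay side by side, 150 kb from the nearest DP peak. The first had equal-length ranks of 76.9 in SOX13hi, 93.2 in SOX13lo, 21.3 in transgenic SOX13hi and 63.0 in transgenic SOX13lo. The second had 75.1, 90.8, 39.0 and 74.8. Both were highest in SOX13lo and lowest in transgenic SOX13hi. The third, chr14:99818268-99818495, had 73.1, 66.8, 55.4 and 57.3. On chromosome 10 at 24200001 to 24300000 DP again had no peak. Beside chr10:24201812-24202422, described above, lay chr10:24201516-24201728, which the shortened SOX13hi and SOX13lo lists did not hold and which ranked 53.8 in transgenic SOX13hi and 10.2 in transgenic SOX13lo. At chr10:24213894-24214014 the equal-length rank was 37.4 in SOX13hi, 65.4 in transgenic SOX13hi and 65.3 in transgenic SOX13lo, and the shortened SOX13lo list did not hold it.

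On chromosome 4 at 96200001 to 96300000, 3 of 4 members were isolated, and the γδ libraries had 6, 9, 8 and 7 regions against 2 in DP. The strongest, chr4:96218271-96218780, scored 95, 142, 62 and 50 (ranks 94.4, 94.7, 90.6 and 90.9). The fourth member, chr4:96258412-96258651, was 109 bp from a DP peak of rank 53.0.

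A window on chromosome 6, at 41400001 to 41500000, held 4 members beside a stretch where the γδ libraries had no peak. The members chr6:41473629-41473842, chr6:41473855-41474163, chr6:41476256-41476828 and chr6:41477028-41477493 spanned 3.87 kb, in which SOX13hi had 7 peaks, SOX13lo 10, transgenic SOX13hi 7, transgenic SOX13lo 6 and DP 0. The equal-length ranks of the first member were 83.5 in SOX13hi, 59.1 in SOX13lo, 61.1 in transgenic SOX13hi and 48.1 in transgenic SOX13lo. Those of the second were 51.5, 44.7, 52.1 and 25.7, and those of the third 72.4, 39.8, 3.86 and 10.2. The last had 90.5, 67.9, 86.8 and 34.9. The 4 neighbours thus shared no single order of the libraries: the second was highest in transgenic SOX13hi and the third was lowest there, while the other two were highest in SOX13hi and lowest in transgenic SOX13lo. From 41483291 to the window end at 41500000 DP had 45 peaks and the 4 γδ libraries had 0. Among the 33155 highest-scoring peaks of DP, 16 lay in the whole window. In the following 100 kb all libraries had peaks again, with 13, 19, 19 and 11 in the γδ libraries and 33 in DP. Tcrb, the locus targeted in the γδ donors, is on chromosome 6 in the RefSeq table for GRCm38. Whether this mm9 window belongs to it was not determined here.

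**Figure D5:**
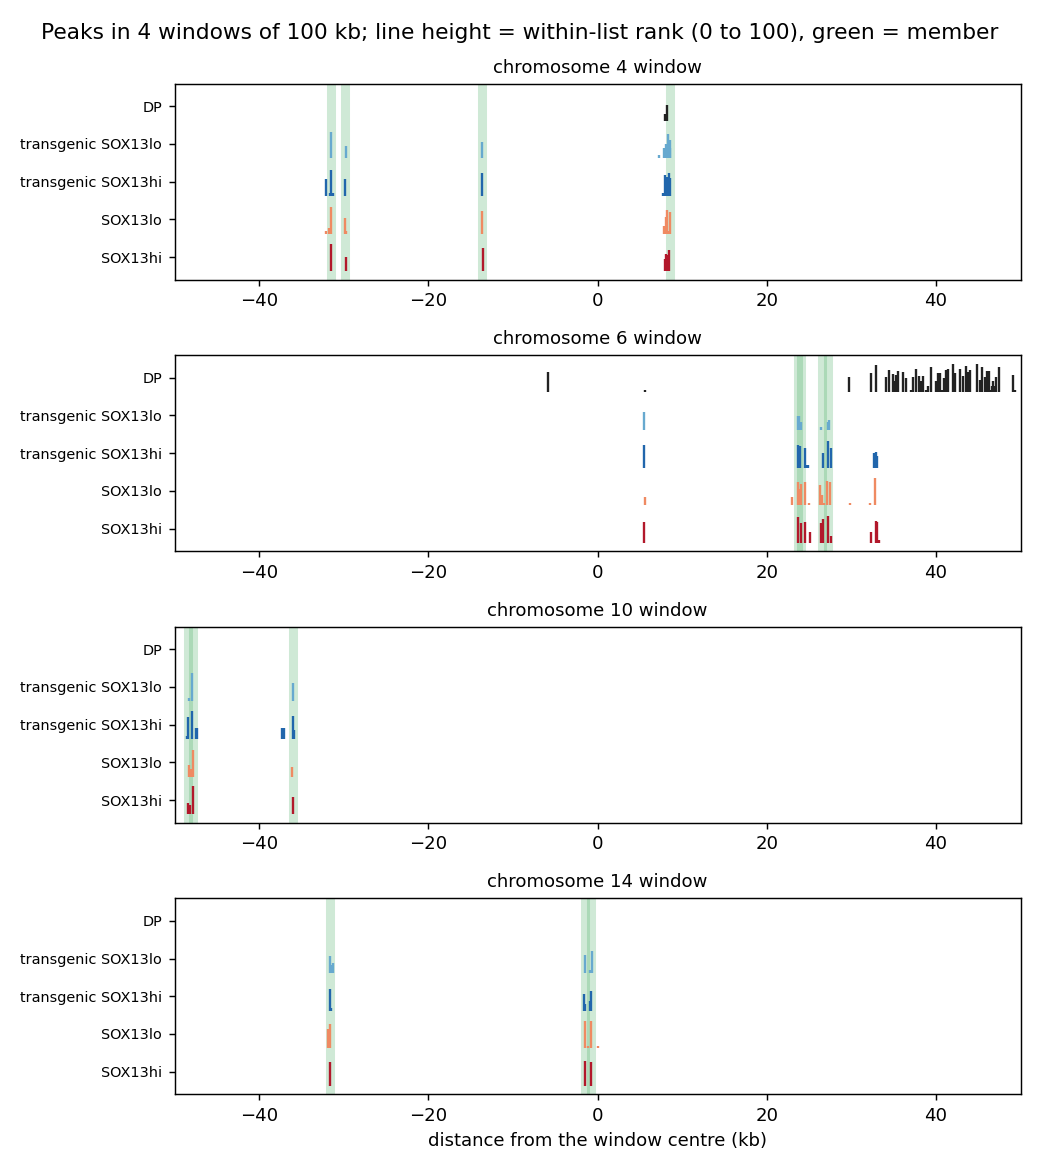
Peaks of the 5 libraries in 4 windows of 100 kb, placed by their distance from the window centre (kb). The height of each line is the within-list rank of the peak (0 to 100) and green bands, drawn wider than the regions, mark members; in the chromosome 6 window DP has 45 peaks in the last 16.7 kb, where the γδ libraries have 0.

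The members farthest from any DP peak, among those ranked above 50 in all γδ lists, were a neighbouring pair on chromosome 12. The region chr12:96985091-96985425 lay 1314 kb from the nearest DP peak and scored 38, 72, 46 and 26. Its neighbour chr12:96985553-96985902 scored 47, 57, 54 and 51. Further members of this kind were chr12:43215088-43215614 (922 kb from DP, scores 91, 92, 116 and 31), chr1:14915032-14915257 (867 kb, 45, 66, 45 and 16) and chr16:63863808-63864154 (860 kb, 48, 47, 43 and 13). These 5 were ranked by distance, so the distances are a description of the choice.

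Of the 5 widest members 4 were adjacent. The widest, chr1:179187347-179188418 with 1072 bp, had equal-length ranks of 87.0 in SOX13hi, 99.7 in SOX13lo, 89.99 in transgenic SOX13hi and 86.8 in transgenic SOX13lo, and a DP peak of 552 bp with a rank of 99.8 lay 206 bp away. The second, chr2:136942466-136943388, was isolated at 224 kb from DP. Its equal-length rank was 95.4 in SOX13hi, 89.1 in SOX13lo, 97.4 in transgenic SOX13hi and 48.1 in transgenic SOX13lo, and 7 other regions of at least 2 γδ lists lay within 10 kb. The members chr13:64253329-64254242, chr5:100467381-100468286 and chr10:110602171-110603008 had DP peaks 108, 70 and 247 bp away, and the strongest DP peak near each ranked 99.9.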

How the data were processed

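Each library has 1 peak list, deposited by the authors with a whole-number score per peak. The build is mm9, as the submitters' processing notes state. No aligner, peak caller, threshold or filter is given in the sources used here, nor what the deposited score counts, so scores were ranked within each list (mid-rank percentile). Peaks sharing at least 1 bp were joined. A gap is the number of bases between a region and the nearest peak. Joining, membership and gaps were tested on 20 simulated sets of 5 lists, and all 20 matched a pairwise comparison. Medians have exact binomial order-statistic intervals. The members, the settings and the rules for naming regions were chosen with earlier results of these data known. Those rules named the 10 members with the highest lowest rank, the 5 farthest from DP among those ranked above 50 in every γδ list, the 5 windows of 100 kb with most members, windows dense in every γδ library, the 5 members nearest to DP, the 5 weakest DP regions outside the rule and the 5 widest members. The 15 strongest isolated members, the windows with 3 isolated members and the largest differences between libraries were named after their values were seen. Alternatives were the upper 50% of each list, lists of equal length, peaks joined within 150 bp, a distance from DP, all chromosomes, dense windows left out and each γδ library left out. Planned gene lists and motifs were not used, for want of an mm9 annotation or genome. Software was Python 3.11.15 (numpy 2.4.6; pandas 2.3.3; scipy 1.17.1; figures by matplotlib 3.10.9).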

Additional observations from a re-analysis of the deposited data

How the results depend on the processing

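Among the upper 50% of each list by score there were 564 members (5.72% of the regions of all 4 γδ libraries), with median ranks of 82.3 in SOX13hi, 84.2 in SOX13lo, 85.2 in transgenic SOX13hi and 74.8 in transgenic SOX13lo, a median width of 281.5 bp and 40.8% within 1 kb of a DP peak. In lists of equal length the share was 11.1%, the median ranks were 76.1, 80.3, 79.8 and 57.3, the median width was 247 bp, 20.5% had another member and 687 had no DP peak within 10 kb, and 34.2% had a DP peak within 1 kb. With peaks within 150 bp joined there were 629 members (4.33%), with a median rank of 72.1 in SOX13lo, a width of 321 bp, 7.31% with another member within 10 kb and 16.4% within 1 kb of DP. Requiring no DP peak within 200 bp left 695 members (4.46%; median ranks 71.6 in SOX13hi and 76.1 in transgenic SOX13hi; width 227 bp), and within 1000 bp 466 (2.99%; 73.5 and 77.7), of which 12.02% had another member within 10 kb. Widening narrow DP peaks to 500 bp, chosen after seeing the data, left 777 members (4.99%), a median rank of 76.1 in transgenic SOX13hi, a width of 228 bp and 40.0% within 1 kb of DP. The number with no DP peak within 10 kb, also added after seeing the data, was 322 there too. Such widening can remove only members close to a DP peak, so this number was no check of the setting. Leaving out 1 γδ library at a time gave 1313 to 2953 members, the most without transgenic SOX13lo, and 8.20% to 12.1% of the regions of the other 3. Median ranks were 59.8 to 66.7 in SOX13hi, 64.0 to 73.5 in SOX13lo and 63.4 to 73.2 in transgenic SOX13hi, and 48.1 in transgenic SOX13lo in each case. The width was 169 to 177.5 bp, 16.6% to 21.3% had another member within 10 kb, 53.7% to 67.7% had a DP peak within 1 kb, and 324 to 920 had none within 10 kb, 920 without transgenic SOX13lo. The cause of these shifts was not tested. All chromosomes together, or dense windows left out, changed no value by more than its interval. No paired analysis was possible because each group has 1 library. Read depth and the peak threshold are unknown, which limits what a missing peak shows.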

Other observations

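The sex chromosomes were not part of the 1080 regions. On the X chromosome DP lacked 12 of 361 regions that all 4 γδ lists held, and on the Y chromosome 0 of 26, which with so few regions describes these lists only.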
